A study of Mus musculus with 8 samples.

Results

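The Slitrk, Lrrn and Lingo1 genes encode single-pass membrane proteins whose outer part is built of leucine-rich repeats. They were examined in the upper neocortex of newborn mice that lacked the zinc finger transcription factor Bcl11a. The 10 genes, Slitrk1 to Slitrk6, Lrrn1, Lrrn2, Lrrn3 and Lingo1, were chosen by name, with earlier results of these data known. All 10 had a probe set with 1 gene symbol among the 19938 genes measured. The tissue was layers II to IV, cut with a laser from pups at postnatal day 2, with 1 array per pup. Mutant pups (n = 4) were Bcl11a flox/flox;Emx1 IRESCre/+ and control pups (n = 4) were Bcl11a flox/+;Emx1 IRESCre/+, so both genotypes carried Cre and the controls had 1 floxed allele. Cre expressed from the Emx1 locus acts in progenitors of the cortical excitatory neurons and of much of the glia, and leaves interneurons, vessels and microglia with their alleles unrecombined. The controls therefore do not show the level of a pup with both alleles intact in that lineage.

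Slitrk proteins sit mainly on the receiving side of synapses and bind the receptor tyrosine phosphatases of the LAR family on the axon, and the partner chosen is thought to bias a contact towards an excitatory or an inhibitory synapse. Lrrn proteins carry an immunoglobulin and a fibronectin domain beside the repeats and are known from the developing nervous system, where their partners are less well understood. Lingo1 joins the Nogo receptor and a tumour necrosis factor receptor relative in a complex that restrains axon growth and oligodendrocyte maturation.

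Values are log2 intensities, and array medians lay between 4.83 and 4.91. Correlations over all genes, which are not independent replicates, were 0.994 to 0.997 within a genotype and 0.991 to 0.995 between genotypes. Bcl11a fell to 8.63 ± 0.21 in mutant tissue, against 10.45 ± 0.13 in control tissue (SD, n = 4 each, log2 difference -1.82, SE 0.10, adjusted p = 4.9e-07 by limma). The position of its probes relative to the floxed exon was not analysed here. Control 1 stood apart on the second principal component (16.59, against -10.88 to 7.75 in the other 7 arrays) and its array weight, 0.556, was the lowest of the 8. In 1 mutant and 2 control pups Xist was high, and there 3 Y-linked genes read at most 4.31, a level taken below as a floor under which a reading may be background. Of 15 deep-layer neuron markers, 2 rose and 2 fell, and their summed level was 12.21 to 12.48 in mutants and 11.70 to 12.09 in controls (log2 of the sum). Log2 differences were 1.38 for Ldb2 and 0.95 for Pcp4, the 2 that rose, and -0.90 for Ntsr1, which fell. Over the 15 the median was 0.08, with 11 positive and 4 negative. Their mean deviation from the control mean was 0.119 to 0.223 in mutants and -0.172 to 0.074 in controls. Of 14 upper-layer markers 5 fell and 0 rose, with sums of 12.63 to 12.81 in mutants and 12.83 to 12.93 in controls. Their mean deviation from the control mean overlapped, at -0.213 to -0.053 in mutants and -0.075 to 0.081 in controls. Of 17 interneuron markers 2 fell and 0 rose, with sums of 11.23 to 11.27 in mutants and 11.56 to 11.60 in controls. The 2 were Npy and Dlx1, with log2 differences of -1.63 and -0.46. Over the 17 the median was -0.19, with 3 positive and 14 negative. Their mean deviation from the control mean was -0.230 to -0.183 in mutants and -0.111 to 0.063 in controls. Of 8 subplate markers Nr4a2 fell and 0 rose, with sums of 7.80 to 7.94 in mutants and 8.13 to 8.93 in controls, and 3 (Cplx3, Nxph4 and Inpp4b) averaged at or below the floor. Log2 differences were positive for 4 of these 8 and negative for 4, with a median of -0.02, against -2.15 for Nr4a2. Of 9 excitatory neuron markers 1 rose and 2 fell, with sums of 12.53 to 12.63 in mutants and 12.21 to 12.40 in controls. Their mean deviation from the control mean overlapped too, at 0.022 to 0.115 in mutants and -0.366 to 0.206 in controls. Of 12 endothelial and pericyte markers 1 fell and 0 rose; their sums overlapped, at 10.14 to 10.31 in mutants and 10.26 to 10.39 in controls, while their mean deviation from the control mean was -0.200 to -0.041 in mutants and -0.038 to 0.027 in controls, without overlap. Sums also overlapped between genotypes in the 8 other marker lists. Microglial markers rose or fell in 0 of 10 cases, and 6 of the 10 averaged at or below the floor, among them Aif1, Tmem119 and P2ry12. The part of these markers in the results that follow was not tested, and in bulk tissue fewer cells of a type and less RNA per cell cannot be told apart.

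Upstream sequences of the 3 genes that changed between genotypes are shown because Bcl11a and its partner Bcl6 are DNA-binding repressors. The sequences are RefSeq's for GRCm38.p6, in which 8 of the 10 genes matched by symbol, with 2 listed starts each for Slitrk2 and Lingo1. Each run gives the 250 bases before the start, 5′ to 3′ on the strand of the gene, and capitals would mark TGACCA or its reverse complement, the letters that BCL11A binds at human globin genes.
Lrrn1 (chr6:107529476-107529725, plus strand): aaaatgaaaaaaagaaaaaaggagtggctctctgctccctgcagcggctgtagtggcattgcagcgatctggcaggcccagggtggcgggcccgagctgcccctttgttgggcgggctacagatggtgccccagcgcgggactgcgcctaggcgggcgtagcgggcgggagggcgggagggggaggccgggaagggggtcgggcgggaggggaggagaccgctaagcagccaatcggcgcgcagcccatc
Lingo1 (chr9:56796311-56796560, minus strand): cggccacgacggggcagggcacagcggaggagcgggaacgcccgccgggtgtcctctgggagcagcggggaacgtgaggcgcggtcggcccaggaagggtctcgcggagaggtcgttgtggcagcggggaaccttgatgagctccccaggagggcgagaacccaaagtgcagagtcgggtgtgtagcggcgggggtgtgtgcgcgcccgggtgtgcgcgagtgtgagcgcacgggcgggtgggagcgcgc
Lingo1 (chr9:56635649-56635898, minus strand): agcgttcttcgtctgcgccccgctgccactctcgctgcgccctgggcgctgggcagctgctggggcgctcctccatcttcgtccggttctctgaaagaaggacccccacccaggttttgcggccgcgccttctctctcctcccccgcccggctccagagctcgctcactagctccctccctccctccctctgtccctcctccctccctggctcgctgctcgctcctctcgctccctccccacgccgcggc
Slitrk2 (chrX:66649068-66649317, plus strand): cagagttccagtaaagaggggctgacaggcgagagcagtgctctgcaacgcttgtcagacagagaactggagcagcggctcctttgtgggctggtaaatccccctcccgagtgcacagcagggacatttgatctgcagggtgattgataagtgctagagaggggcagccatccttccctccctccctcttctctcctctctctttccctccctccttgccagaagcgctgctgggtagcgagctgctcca
Slitrk2 (chrX:66652909-66653158, plus strand): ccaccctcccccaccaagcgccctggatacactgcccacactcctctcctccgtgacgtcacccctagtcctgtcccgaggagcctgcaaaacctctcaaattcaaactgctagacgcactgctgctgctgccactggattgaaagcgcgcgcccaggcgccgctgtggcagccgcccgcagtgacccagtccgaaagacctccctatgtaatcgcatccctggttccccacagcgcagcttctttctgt
None of these runs holds the motif on either strand. It was found in 2 of the 10 windows of member genes, each reaching from 250 bases before to 50 bases after a start, and in 13.6% of 32851 such windows of mouse genes. Both belong to genes that did not pass the test, Slitrk3 and Slitrk5, and stretches of 54 bases around the match are shown with the motif in capitals.
Slitrk3 (chr3:73057168-73057221, minus strand): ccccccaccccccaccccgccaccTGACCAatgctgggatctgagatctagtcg
Slitrk5 (chr14:111675822-111675875, plus strand): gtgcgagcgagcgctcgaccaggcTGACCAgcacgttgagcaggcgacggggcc
The match starts 131 bases before the start of Slitrk3 and 181 bases before that of Slitrk5. The letters TTCCTAGAA, one form of the site of Bcl6, were in 0 of the 10 windows on either strand and in 0.411% of all windows. Such a match, or its absence in a window, is a description of letters and not of binding.

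Of the 10 genes, Lrrn1 and Lingo1 rose and Slitrk2 fell in the mutant layers, and 7 did not pass the test. Among all 19938 genes 2.36% rose and 1.79% fell (470 and 357 genes; 386 and 459 with array medians centred), so 4.15% were called in either direction. The members' median log2 difference was 0.07 and that of all genes was 0.02. Mutant and control values did not overlap for 4 members, the 3 that changed and Slitrk3, against 9.25% of all genes. The 3 genes that passed come from 3 families, 1 of 6 Slitrk genes, 1 of 3 Lrrn genes and Lingo1. The plot of differences by gene shows the size and the interval for each.

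**Figure D1:**
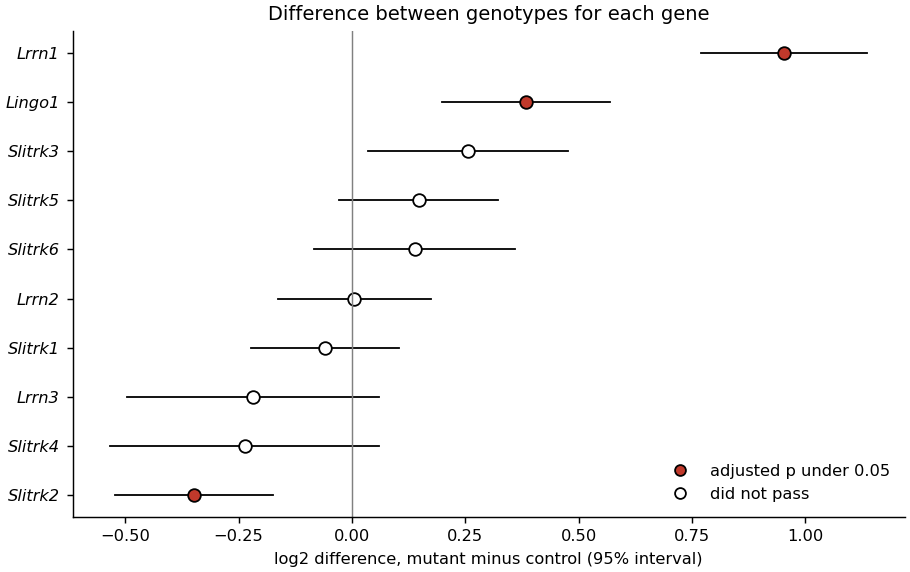
Log2 difference, mutant minus control, for each of the 10 genes (x axis) with its 95% interval from limma; filled points have an adjusted p under 0.05 over all genes. Lrrn1 stands alone near 0.95, Lingo1 lies at 0.38 and Slitrk2 at -0.35, while the intervals of 6 of the other 7 genes cross 0.

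Lrrn1 had the largest change of the 10 genes and rose by close to 1 log2 unit. It read 8.55, 8.82, 8.78 and 8.59 in the 4 mutants, against 7.55, 7.73, 7.82 and 7.82 in the 4 controls. The genotypes were far apart, and the gap between their nearest pups was wider than the whole range within either. The means were 8.68 ± 0.14 in mutants and 7.73 ± 0.13 in controls (SD, n = 4 each), which is 1.94-fold higher with a 95% interval of 1.71 to 2.20 (log2 difference 0.95, SE 0.08, adjusted p = 2.28e-05 by limma). The exact two-sided permutation p was 0.0286, the smallest that 4 arrays against 4 can give, and any gene whose groups do not overlap reaches it. With each array left out in turn the difference stayed between 0.89 and 1.00 and the adjusted p between 2.51e-05 and 2.26e-04, and the difference was 0.89 without control 1, the lowest pup.

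The other Lrrn genes did not pass. Lrrn2 read 8.59, 8.71, 8.42 and 8.53 in mutants and 8.61, 8.56, 8.41 and 8.64 in controls, so the groups lay over each other. Its log2 difference was 0.01, with a 95% interval of -0.16 to 0.17, and the sign turned with several settings. Lrrn3 read 9.50, 8.96, 9.18 and 8.77 in mutants and 9.13, 9.43, 9.39 and 9.35 in controls. The mutants of Lrrn3 were the more scattered, with mutant 1 above every control and mutants 2 and 4 below every one (log2 difference -0.22, 95% interval -0.50 to 0.06, adjusted p = 0.513). Lrrn4, a relative kept outside the group, averaged 4.24 in mutants and 4.11 in controls, both under the floor of 4.31.

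Lingo1 was the second gene to rise. Its values were 8.11, 8.25, 8.19 and 8.24 in mutants, against 7.58, 7.81, 7.86 and 8.01 in controls. The mutants were tightly grouped and all above the controls, among which control 1 was lowest and control 4 came nearest to the mutants. The means were 8.20 ± 0.06 in mutants and 7.81 ± 0.18 in controls (SD, n = 4 each), 1.30-fold higher with a 95% interval of 1.15 to 1.48 (log2 difference 0.38, SE 0.09, adjusted p = 0.0207 by limma). Without control 1 the difference was 0.30 with an adjusted p of 0.0324, while the call was lost without mutant 2 (adjusted p = 0.0738), mutant 3 (0.0540), mutant 4 (0.0689) or control 2 (0.0540).

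The 3 relatives of Lingo1 on the array did not pass: log2 differences were 0.43 for Lingo2, 0.07 for Lingo3 and 0.17 for Lingo4 (adjusted p = 0.334, 0.814 and 0.564). Lingo2 read 6.19, 6.16, 6.43 and 6.37 in mutants and 5.15, 5.89, 6.02 and 6.38 in controls. Control 1 was its lowest pup, as it was for Lingo1 and Lrrn1, and control 4 lay among the mutants.

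**Figure D2:**
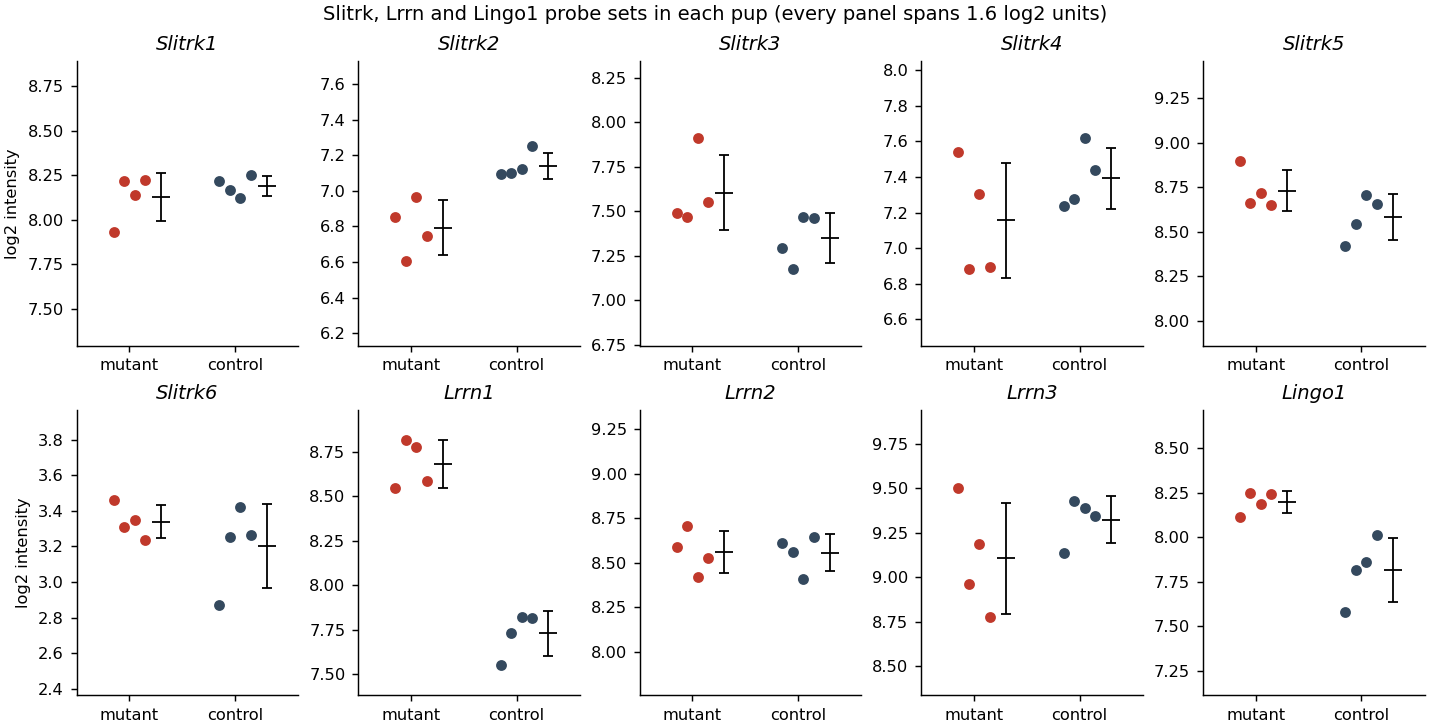
Log2 intensity (y axis) of each gene in each pup, 1 point per array, mutants in red on the left and controls in blue on the right of every panel, with the mean and SD (n = 4) as a bar beside the points. Panels share the length of the y axis but not its position; the points of Lrrn1 are the most separated, those of Lingo1, Slitrk2 and Slitrk3 do not overlap, and those of Lrrn2 and Slitrk1 lie at one level.

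Slitrk2, a synaptic adhesion gene on the X chromosome, was the only Slitrk gene to pass. Its brighter probe set read 6.85, 6.61, 6.97 and 6.74 in mutants, against 7.09, 7.10, 7.12 and 7.25 in controls. Every mutant was below every control, mutant 3 being the nearest. The means were 6.79 ± 0.15 in mutants and 7.14 ± 0.07 in controls (SD, n = 4 each), 1.27-fold lower with a 95% interval of 1.13 to 1.44 (log2 difference -0.35, SE 0.08, adjusted p = 0.0254 by limma). The call rests on that probe set: the dimmer one read 6.24, 5.89, 6.07 and 5.92 in mutants and 6.02, 6.02, 6.31 and 5.98 in controls, a log2 difference of -0.05 (SE 0.09, adjusted p = 0.885 over all probe sets). The mean of both gave -0.20 with an adjusted p of 0.235. The call was also lost without mutant 2 (adjusted p = 0.0846), mutant 4 (0.0827), control 2 (0.0509), control 3 (0.0583) or control 4 (0.0811), and with inferred sex as a covariate (0.0590).

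Since Slitrk2 and Slitrk4 are X-linked, their values are also given by the sex inferred from Xist. The brighter Slitrk2 probe set read 6.97 in the high-Xist mutant, against 7.09 and 7.12 in the high-Xist controls, and 6.61 to 6.85 in the low-Xist mutants, against 7.10 and 7.25 in the low-Xist controls. Mutants were the lower within each sex, which had to follow because every mutant was below every control. The split by sex therefore adds no support, and it holds only 1 high-Xist mutant. Slitrk4, another gene of synapse formation, read 7.54, 6.89, 7.31 and 6.89 in mutants and 7.24, 7.28, 7.62 and 7.44 in controls. Mutants 2 and 4 were below every control and mutants 1 and 3 lay among them, and the difference did not pass (log2 difference -0.24, 95% interval -0.53 to 0.06, adjusted p = 0.504).

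**Figure D3:**
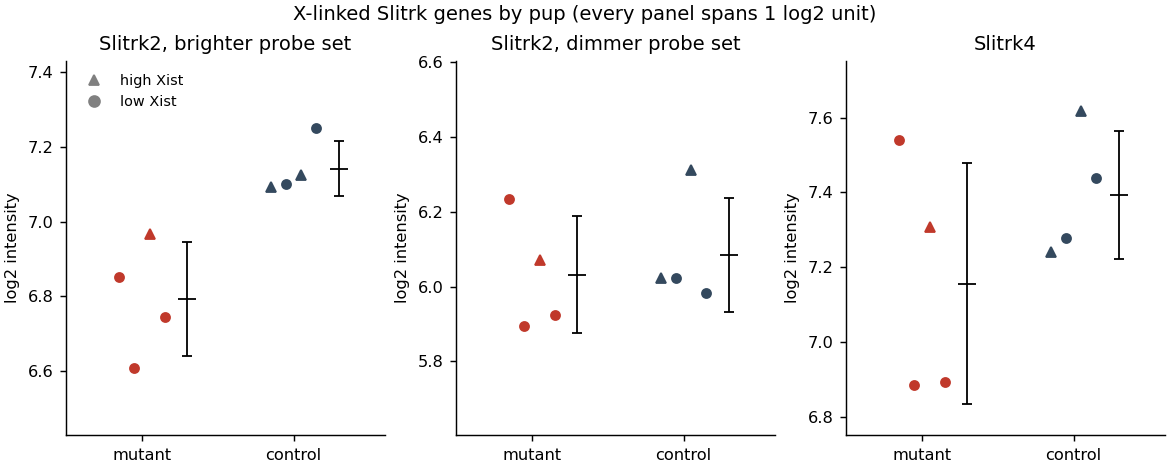
Log2 intensity (y axis) of both Slitrk2 probe sets and of Slitrk4 in each pup, mutants in red on the left and controls in blue on the right, with mean and SD (n = 4); triangles are pups with high Xist and circles those with low Xist. The brighter Slitrk2 probe set separates the genotypes over all pups, whereas the dimmer one and Slitrk4 overlap.

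Slitrk1, Slitrk6 and Slitrk5 lie side by side on chromosome 14, with 0 protein-coding genes between neighbours in RefSeq, and none of them passed. Slitrk1, which promotes neurite growth and synapse formation, read 7.93, 8.22, 8.14 and 8.22 in mutants and 8.22, 8.17, 8.12 and 8.25 in controls. Apart from the lower mutant 1 the pups were at one level (log2 difference -0.06, 95% interval -0.22 to 0.10). Slitrk5, whose loss in mice alters striatal synapses and grooming, read 8.90, 8.66, 8.71 and 8.65 in mutants and 8.42, 8.54, 8.71 and 8.66 in controls. The groups overlapped, with mutant 1 highest and control 1 lowest (log2 difference 0.15, 95% interval -0.03 to 0.32, adjusted p = 0.472). Slitrk6, a gene of inner ear and eye innervation, read between 3.24 and 3.46 in mutants and between 2.87 and 3.42 in controls. All 8 of its readings were under the floor of 4.31, so it may have been at background in both genotypes and no fold is given.

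Slitrk3, which organises inhibitory synapses through the phosphatase Ptprd, came nearest to passing of the other 7 genes. It read 7.49, 7.47, 7.91 and 7.55 in mutants and 7.29, 7.17, 7.47 and 7.46 in controls. The groups did not overlap, but mutant 2 (7.466) and control 3 (7.465) all but met, and mutant 3 stood above the rest. The means were 7.60 ± 0.21 in mutants and 7.35 ± 0.14 in controls (SD, n = 4 each), with a log2 difference of 0.26 (SE 0.10, 95% interval 0.03 to 0.48, adjusted p = 0.259 by limma).

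The axonal partners of Slitrk proteins were next compared. Of 11 genes for LAR phosphatases and the proteins that bind them in the axon, 1 rose, 1 fell and 9 did not pass, with a median log2 difference of 0.08. Ptprd fell: it read 9.61, 9.12, 9.36 and 9.26 in mutants, against 9.67, 9.75, 9.80 and 9.72 in controls. Every mutant was below every control, and mutant 1 came near them (log2 difference -0.40, SE 0.09, adjusted p = 0.0265 by limma). The other 2 phosphatases did not pass: the log2 difference was 0.06 for Ptprs (95% interval -0.09 to 0.21) and 0.17 for Ptprf (95% interval 0.03 to 0.31, adjusted p = 0.219). Ppfia2, a liprin scaffold of the presynaptic active zone, rose, at 9.97, 10.21, 10.09 and 9.87 in mutants and 9.70, 9.62, 9.63 and 9.59 in controls. Its log2 difference was 0.40 (SE 0.08, adjusted p = 0.00846 by limma), and it passed with any 1 array left out. Ptprd lost its call without mutant 2, 3 or 4 or control 2, 3 or 4 (highest adjusted p = 0.0921). It also lost the call with inferred sex as a covariate (0.0578). When variances were not moderated across genes, neither Ppfia2 (adjusted p = 0.0888) nor Ptprd (0.195) passed.

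Other ligands of the same phosphatases changed both ways: of 10, 1 rose, 2 fell and 7 did not pass, with a median log2 difference of 0.03. Il1rap, the accessory protein of the interleukin-1 receptor, rose to 6.23 ± 0.16 in mutants, against 5.78 ± 0.20 in controls (SD, n = 4 each, log2 difference 0.45, adjusted p = 0.0247 by limma). Its relative Il1rapl1, an X-linked synaptic gene, fell to 5.57 ± 0.11 in mutants, against 5.90 ± 0.08 in controls (SD, n = 4 each, log2 difference -0.34, adjusted p = 0.0168). Lrfn5, a leucine-rich repeat synaptic organiser, fell to 8.02 ± 0.07 in mutants, against 8.29 ± 0.06 in controls (SD, n = 4 each, log2 difference -0.27, adjusted p = 0.0294). Each of the 3 lost its call without some single array: Il1rap without mutant 1, 2 or 3 or control 3 or 4 (highest adjusted p = 0.0766), Il1rapl1 without mutant 3 or control 2 (0.0596), and Lrfn5 without mutant 2, 3 or 4 or control 2, 3 or 4 (0.102). Il1rap also lost it after quantile normalization (adjusted p = 0.0531). The count of the 10 that passed ranged from 0, without mutant 3, to 4, without control 1.

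In a list of Nogo receptors and co-receptors, their ligands and cytoplasmic effectors, 2 of 12 measured genes fell, 0 rose and 10 did not pass, with a median log2 difference of -0.05. Rtn4rl1, a homologue of the Nogo receptor, read 7.22, 7.14, 7.28 and 7.31 in mutants, against 8.30, 8.03, 8.11 and 8.28 in controls. Every mutant was below every control, and the difference was about as large as that of Lrrn1 with the opposite sign (1.92-fold lower, 95% interval 1.72 to 2.16, log2 difference -0.94, SE 0.08, adjusted p = 1.08e-05 by limma). Omg, a myelin-associated ligand of the Nogo receptor that neurons also make, read 5.29, 5.16, 5.54 and 5.71 in mutants, against 5.93, 6.10, 6.51 and 6.39 in controls. It was 1.75-fold lower (log2 difference -0.80, SE 0.14, adjusted p = 0.00319). Both passed with any 1 array left out. When variances were not moderated across genes, Rtn4rl1 passed (adjusted p = 0.0108 by limma) and Omg did not (0.128).

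The Nogo receptor itself and its signalling partners did not pass on the brightest probe set of each gene. With each probe set tested, the list held 3 calls against 2, the added one from a dimmer probe set of the effector Rhoa or Wnk1. Rtn4r, the Nogo receptor that Lingo1 joins, had a log2 difference of 0.02 (95% interval -0.15 to 0.19). The tumour necrosis factor receptor relatives Ngfr and Tnfrsf19 had log2 differences of -0.02 and -0.08 (95% intervals -0.20 to 0.16 and -0.22 to 0.06). Rtn4, the ligand Nogo, had -0.01 (95% interval -0.14 to 0.12). Of 9 oligodendrocyte lineage markers 1 rose and 0 fell, with sums of 9.39 to 9.53 in mutants and 9.44 to 9.67 in controls, and the myelin genes Mog and Enpp6 averaged at or below the floor.

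**Figure D4:**
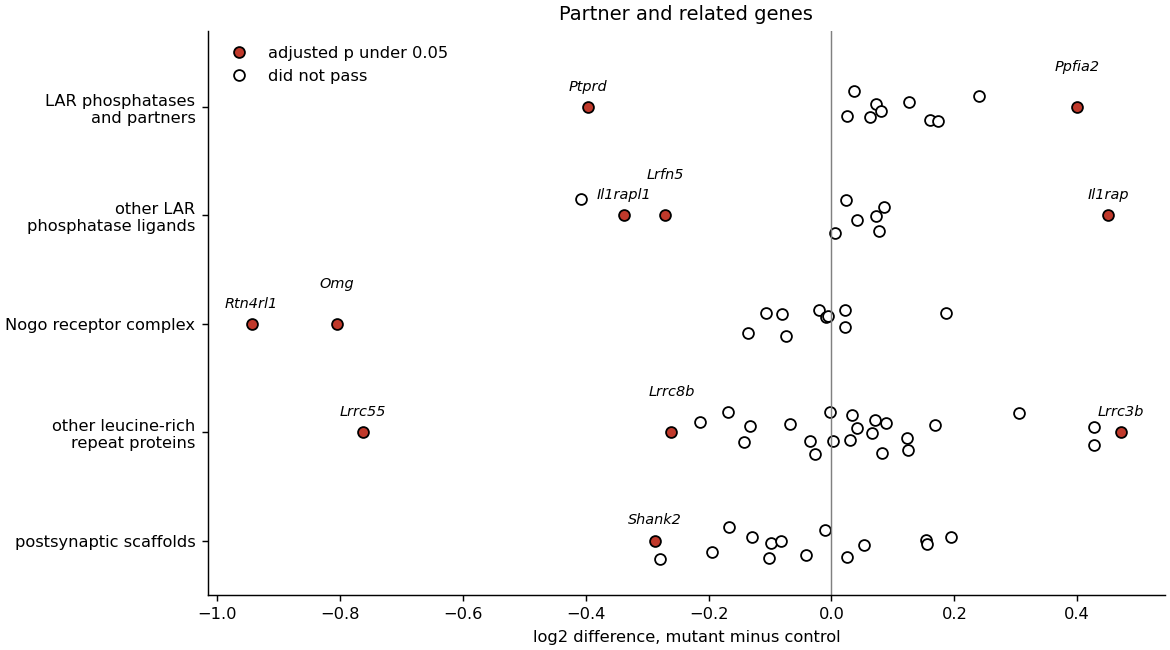
Log2 difference, mutant minus control (x axis), of the measured genes of 5 partner and related lists (rows); filled and named points have an adjusted p under 0.05 over all genes. Rtn4rl1, Omg and Lrrc55 lie farthest to the left, and each list holds points on both sides of 0.

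Of 25 other leucine-rich repeat membrane proteins of neurons, 1 rose, 2 fell and 22 did not pass, with a median log2 difference of 0.03. Lrrc55, an auxiliary subunit of large-conductance potassium channels, read 5.95, 5.68, 5.75 and 5.63 in mutants, against 6.75, 6.52, 6.28 and 6.51 in controls. Mutants were below controls throughout (log2 difference -0.76, SE 0.10, adjusted p = 4.59e-04 by limma). Lrrc3b rose to 6.37 ± 0.11 in mutants, against 5.90 ± 0.19 in controls (SD, n = 4 each, log2 difference 0.47, adjusted p = 0.0113), and Lrrc8b, a subunit of volume-regulated anion channels, fell to 8.75 ± 0.04 in mutants, against 9.01 ± 0.08 in controls (SD, n = 4 each, log2 difference -0.26, adjusted p = 0.0355). Lrrc8b lost its call in 6 of the 8 omissions of an array, keeping it without control 1 and without control 2 (highest adjusted p = 0.111). It also lost its call with inferred sex as a covariate (adjusted p = 0.0617). Of 15 postsynaptic scaffold genes, Shank2 fell (log2 difference -0.29, adjusted p = 0.0243), 0 rose and 14 did not pass, and the mean of the 3 probe sets of Shank2 gave -0.16 with an adjusted p of 0.282. Shank2 also lost its call without mutant 2, 3 or 4 or control 2, 3 or 4 (highest adjusted p = 0.0896).

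For each of the 3 changed members, the genes with the most similar profile were taken as those with the smallest root mean square difference over the 8 arrays, after centring each gene on its own mean. For Lrrn1 these were Tox3, a high mobility group factor (0.079), and Dclk3, a doublecortin-like kinase (0.079), both higher in mutants (log2 differences 1.02 and 0.92). For Lingo1 they were 6430548M08Rik (0.046) and Cyp26b1, an enzyme that clears retinoic acid (0.051), higher by 0.45 and 0.40. For Slitrk2 they were the amino acid transporter gene Slc7a8 (0.066) and Ralyl, an RNA-binding protein gene (0.067), with differences of -0.37 each. Such likeness includes the genotype difference itself.

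When variances were not moderated across genes, Lrrn1 passed (adjusted p = 0.0163), while Lingo1 (0.161) and Slitrk2 (0.156) did not. The plot of adjusted p by omitted array sets Lrrn1 apart from the other 2 in the same way.

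**Figure D5:**
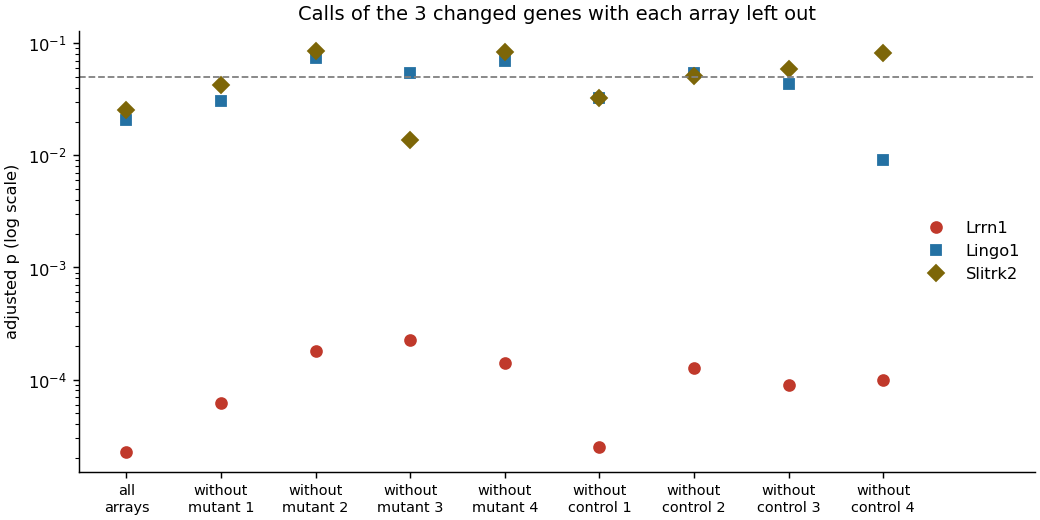
Adjusted p over all genes (y axis, log scale) of Lrrn1, Lingo1 and Slitrk2 with all 8 arrays and with each array left out in turn (x axis); the dashed line marks 0.05. Lrrn1 stays at or below 2.26e-04, while Lingo1 and Slitrk2 cross the line in 4 and 5 of the 8 omissions.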

How the data were processed

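Total RNA of 8 pups was hybridised to Affymetrix mouse gene arrays. The authors deposited log2 values for 35556 probe sets; the base is inferred from the range, 2.03 to 13.8, and if it were another the fold changes would differ and the tests would not. Per the labels, BRB-ArrayTools was used; how the background was corrected and the arrays normalized is not given in the sources used here.

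Probe sets with 1 symbol in the platform annotation (21789) were kept, and the brightest per gene over 8 arrays was used, with no filter on dim genes. Limma 3.58.1 in R 4.3.3 compared genotypes over all 19938 genes (two-sided, Benjamini-Hochberg, threshold 0.05), and "rose" and "fell" mean past it. Differences are mutant minus control. The median SE was 0.0766; the number of arrays limits the precision. The code of the fit was tried on simulated data. The simulated noise was independent between genes and arrays, so that run does not bear on array effects or on any single call.

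The members and lists were chosen with earlier results of these data known. Named are the members, Bcl11a, list genes past the threshold and the nearest profiles. Rtn4r, Ngfr, Tnfrsf19, Rtn4, Ptprs, Ptprf, Lrrn4, the other Lingo genes and markers at the floor were added after their values were seen. Array annotation gives no genome build. Alternatives covered scaling, filters, probe sets, weights, variances, thresholds, replicate number, inferred sex and each array's omission. The labels do not say whether pups came from separate litters.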

Additional observations from a re-analysis of the deposited data

Results flagged for a closer look

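In 44 groups of 4 arrays, those of 22 named genes in each genotype, 0 had a pup farther from the others than Dixon's 95% critical value allows, where chance gives about 1 in 20. The nearest were Shank2 in the mutants (0.828, mutant 2 lowest) and Slitrk3 in the mutants (0.811, mutant 3 highest).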

How the results depend on the processing

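Lrrn1, Rtn4rl1 and Bcl11a kept their direction and passed the threshold in each of the 21 other settings run. Of 460 gene and setting pairs for 22 of the named genes, 385 kept direction and side of the threshold, 68 lost the call and 7 changed sign. The sign changes were small: with 1 array left out Slitrk1 ranged from -0.091 to 0.0057, above 0 without mutant 1, and Lrrn2 from -0.043 to 0.052, below 0 without mutant 1, mutant 2 or control 3. Lrrn2 was -0.0045 after quantile normalization, -0.030 with medians centred and -0.028 with inferred sex. With no variance moderation 123 genes rose and 126 fell; of the members 1 rose and 0 fell, and calls among LAR phosphatases and partners, other LAR ligands, the Nogo list, other leucine-rich repeat proteins and scaffolds numbered 0, 0, 1, 0 and 0. At a threshold of 0.01, 243 genes rose and 204 fell, 1 member rose and 0 fell, and those lists held 1, 0, 2, 1 and 0 calls. With the mean of probe sets 0 members fell and 0 scaffold genes were called. With each probe set tested the Nogo list held 3 calls. With inferred sex 0 members fell and 1 LAR phosphatase or partner gene was called, with 2 other leucine-rich repeat genes. Leaving out 1 array gave 324 to 451 genes higher and 260 to 376 lower, 1 to 2 members higher and 0 to 1 lower, and list calls of 1 to 2, 0 to 4, 2 to 2, 2 to 4 and 0 to 2. The cause of these changes was not tested.

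The replicate numbers are shared between genotypes, but no label ties same-numbered pups, so they were not taken as pairs. The deviations of same-numbered pups correlated at 0.11, 0.06, 0.30 and 0.15, all positive, which does not settle whether they were paired. With the replicate block 565 genes rose and 422 fell, against 470 and 357 without it. Of the members 2 rose and 1 fell, 2 scaffold genes were called against 1 without the block, and Lrfn5 lost its call. The adjusted p became smaller for some named genes, as for Il1rap (0.00296 by limma), and larger for others, as for Shank2 (0.0435).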
